A study of Mus musculus with 8 samples.

Results

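Gene expression was compared between rostral Gfp-positive cells of the embryonic mouse ventral midbrain and Gfp-negative cells of the same specimens. The comparison rests on the 4 arrays that the labels title Rostral 1 to 4, out of 8 arrays in the series. On each of the 4 arrays a pool of sorted rostral cells was labelled with Cy3 and a common reference, pooled from Gfp-negative cells, was labelled with Cy5. The other 4 arrays hold caudal pools against the same reference and were used only where a rostral value is set beside a caudal one.

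Every embryo was heterozygous for a Gfp allele at Pitx3 and was taken at E14.5, and both parts of the midbrain share this genotype. One copy of Pitx3 is thus replaced in the sorted cells of both parts. A pool held cells of 5 to 7 embryos, drawn from several litters, dissociated with papain and sorted on either of 2 instruments. The labels do not say whether the reference came from rostral tissue, caudal tissue or both, nor which instrument sorted which pool. No array carries the dyes the other way round, so dye and cell population cannot be told apart. The reference counts as 1 control sample, its own spread does not enter the test, and the p-values measure only the spread among the 4 pools.

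Pitx3 encodes a homeodomain transcription factor that, within the brain, is made by midbrain dopaminergic neurons, so a reporter at its locus labels them. Dopaminergic neurons make dopamine from tyrosine through tyrosine hydroxylase and aromatic amino acid decarboxylase, load it into vesicles and take it back up through the plasma membrane transporter. They arise from the floor plate, and the Foxa, Lmx1, En, Nr4a2 and Pitx3 factors act in their specification, maturation and survival. At this stage of development many are young neurons that migrate and extend axons towards the forebrain. The cells left in the Gfp-negative fraction include progenitors and radial glia, other neurons, vessels and blood.

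Tests covered the 18914 genes with signal well above background in either channel on 2 or more of the 4 arrays. All log2 ratios are sorted cells over reference, and a gene was called if its adjusted p in limma was below 0.05. Of the genes tested, 5067 (26.8%) were higher in the rostral Gfp-positive cells and 5517 (29.2%) were lower. Counts of list members below are to be read beside these shares. At 2-fold or more, 753 genes (3.98%) were higher and 1824 (9.64%) were lower. In 12499 genes (66.1%) the 4 ratios had the same sign. The median over all genes tested was 0.00, and the median SD of the 4 ratios of a gene was 0.18. The share of probes well above background was 63.7% to 70.4% for the sorted cells and 55.8% to 63.5% for the reference. Across genes, any 2 of the 4 arrays correlated at 0.87 to 0.88. The split between the directions depends on scaling. Among called genes 47.9% were higher, against 61.3% when each array was only centred on its median, which moves the median of all genes by 0.13, and 53.3% with the scanner software's processed signals. Among genes called at 2-fold or more these shares were 29.2%, 44.4% and 40.6%. In a bulk comparison of this kind, fewer cells of a type and less RNA per cell cannot be told apart.

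**Figure D1:**
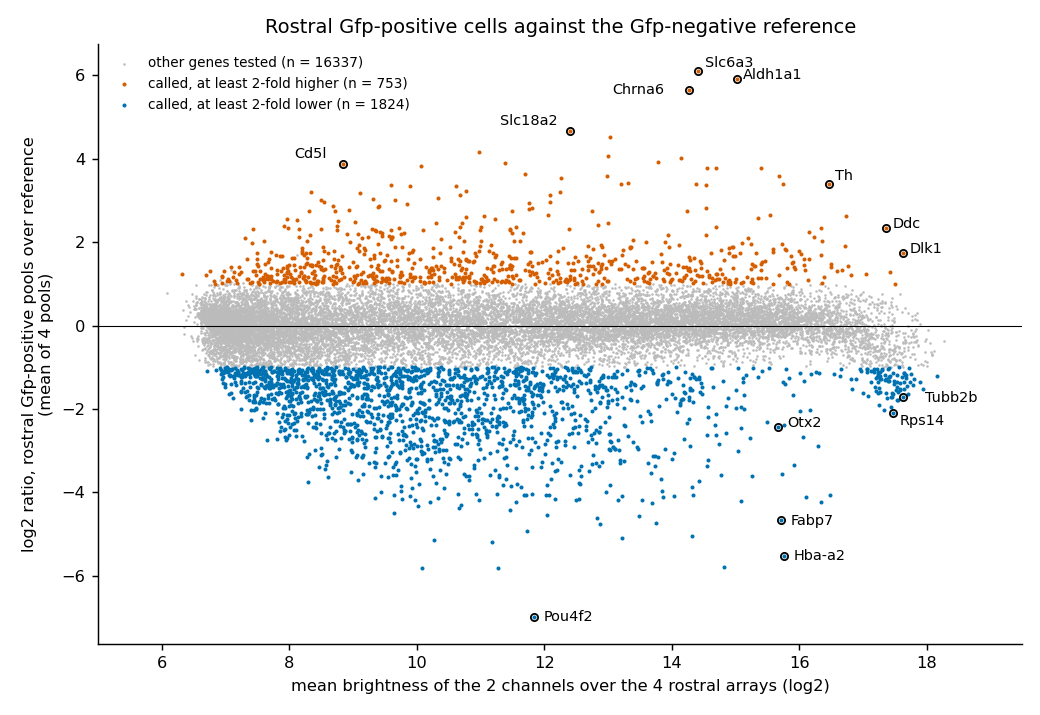
Mean log2 ratio of each of the 18914 genes over the 4 rostral arrays (y axis) against the mean brightness of both channels on a log2 scale (x axis). Orange points are the 753 genes called at least 2-fold higher in sorted cells, blue points the 1824 called at least 2-fold lower, grey points all others, and circles mark named genes. Slc6a3 at 6.10 is the highest point and Pou4f2 at -6.98 the lowest, and the brightest genes lie mostly below 0.

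The plot of ratio against brightness has 1 feature that touches several results below. Of the 424 genes with a mean brightness of at least 17 on the log2 scale, 317 were lower and 64 were higher, with a median of -0.50. In the bins between 9 and 17 the share called lower was 24.8% to 32.2%. With the scanner software's processed signals the same 424 genes gave 186 lower and 155 higher, and their median was -0.05. Median centring went the other way, with 367 lower, 31 higher and a median of -0.81. Results on very bright genes are therefore also given with the processed signals.

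The largest rises were genes of the dopaminergic phenotype and receptors. Slc6a3, the plasma membrane dopamine transporter, had log2 ratios of 6.04, 6.10, 6.22 and 6.04 in rostral pools 1 to 4. The mean was 6.10 ± 0.08 (SD, n = 4), a 68.5-fold difference with an adjusted p of 7.8e-07. Aldh1a1, a retinaldehyde dehydrogenase of a subset of these neurons, followed at 5.97, 6.06, 5.75 and 5.86. Chrna6, a nicotinic acetylcholine receptor subunit typical of catecholaminergic neurons, gave 5.77, 5.74, 5.40 and 5.70. The 4 pools lay within 0.37 of each other for each of the 3 genes. Ret, the signalling receptor for the GDNF family, rose by 4.53 ± 0.15 (SD, n = 4). Among the 15 largest rises, 2 transporters of the bile acid family with neuronal expression, Slc10a4 and Slc10a4l, reached 3.90 and 4.03, but they are close relatives whose probes may share signal. The list also held Tmem255a at 3.77, although a dimmer probe of that gene gave 0.49 and was not called.

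The dopamine pathway split by step. Of 15 genes for synthesis, cofactor supply, storage, uptake, breakdown and the D2 receptor, 7 were higher and 5 lower (median 0.10). With median centring 2 were lower (median 0.37), and without 1 pool 3 or 4 were. Over all genes 26.8% were higher and 29.2% lower. Slc18a2, which loads monoamines into vesicles, gave 4.73, 4.79, 4.53 and 4.58. Gch1, the first enzyme of tetrahydrobiopterin synthesis, gave 3.79, 4.0, 3.92 and 3.98. Th, which converts tyrosine to the dopamine precursor, gave 3.41, 3.38, 3.50 and 3.26. All 4 pools were high for these 3 genes and none came near 0. Ddc, the decarboxylase that completes synthesis, averaged 2.34 ± 0.18 (SD, n = 4) on its brightest probe and 4.20 on another. Drd2, the dopamine autoreceptor gene, was more variable at 1.98, 2.14, 1.51 and 2.83, with pool 4 highest. Some genes that act around the same cofactor fell. Gchfr, whose protein binds and inhibits the Gch1 enzyme, was at -2.91, -3.75, -2.71 and -2.87, with a mean of -3.06 and an adjusted p of 7.4e-05. Spr, the last enzyme of tetrahydrobiopterin synthesis, fell by 0.74, and Pcbd2, a recycling enzyme of the cofactor, fell by 0.62. With median centring Pcbd2 was at -0.26 and lost its call (adjusted p = 0.216 in limma). Pts, the middle enzyme of the same synthesis, was at -0.30 with an adjusted p of 0.04. Its call was lost without any 1 of the 4 pools and with the processed signals, and with median centring its ratio was 0.01, so its direction is not settled. The monoamine oxidase genes Maoa and Maob were not called. Maob stood at -1.66 in pool 1 and between -0.15 and 0.16 in the other pools.

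Of the 27 transcription factors of the lineage listed, 13 were higher, 7 lower and 7 not called (median 0.41), and 5 of them lay close together at the top. Foxa1 and Foxa2, forkhead factors of the floor plate, averaged 3.78 ± 0.17 and 3.59 ± 0.09 (SD, n = 4). Nr4a2, a nuclear receptor needed for the dopaminergic phenotype, gave 3.70, 3.76, 4.0 and 3.68. Pitx3 itself, carried by 1 intact allele, gave 3.71, 3.57, 3.65 and 3.42. Lmx1a, a LIM homeodomain factor of the floor plate, averaged 3.39 ± 0.11 (SD, n = 4). On their brightest probes the 5 factors rose 10.5-fold to 13.8-fold, with no pool below 3.29, while other probes of Nr4a2 and Foxa2 gave larger rises of 5.30 and 3.98. En1 and En2, the engrailed factors that keep these neurons alive, rose less, by 1.70 and 1.44. Pbx3, a homeodomain cofactor, rose by 1.32 and was, with the LIM-only factor Lmo4 at 1.25, among the 10 brightest genes called 2-fold or more higher. Lmx1b rose by 0.76 on its brightest probe, and its other tested probe, at 0.18, was not called. With median centring 16 of the 27 were higher and 5 lower.

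Otx2 was the lowest of these factors. It is a homeodomain factor of the forebrain and midbrain that in dopaminergic neurons is known from the ventral tegmental area. Its rostral ratios were -2.53, -1.54, -3.45 and -2.24, all below the reference, with pool 3 lowest and pool 2 highest. The caudal mean was -0.37 ± 0.14 (SD, n = 4), and the rostral minus caudal difference of -2.07 had an adjusted p of 0.013 and kept its call in each of the 8 fits that left out 1 pool. Tle4, a corepressor of the Groucho family, was at -1.55. Nfib fell by 0.86, and all 4 of its other tested probes were called lower too. Pou3f2 was at -0.73 on its brightest probe but at 0.72 on another called probe, so the gene has no single direction here. Sox6, a factor of substantia nigra neurons, was at -0.17, 0.93, -0.04 and 0.13 and was not called.

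**Figure D2:**
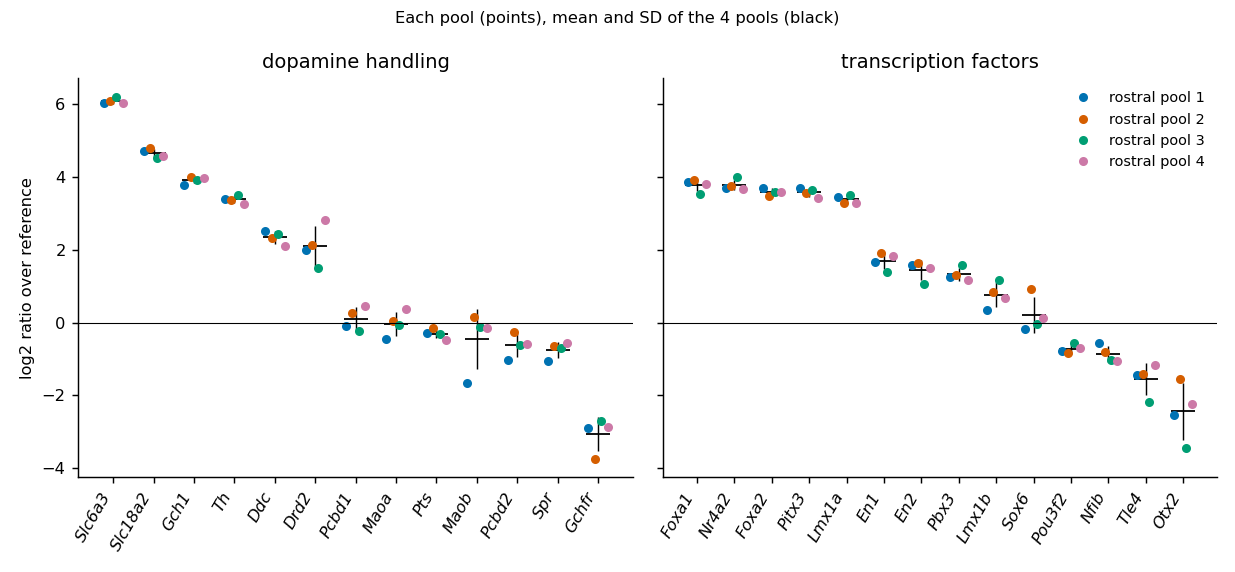
Log2 ratio of sorted cells over reference (y axis) in each of the 4 rostral pools (coloured points) for genes of dopamine handling (left) and transcription factors of the lineage (right); the black bar and line are the mean and SD of the 4 pools. Slc6a3, Slc18a2, Gch1 and Th lie above 3 in every pool, the 5 factors from Foxa1 to Lmx1a lie between 3.29 and 4.0, and Gchfr and Otx2 lie below 0 in every pool.

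Sequence upstream of 4 of these genes is shown because they rose together and the factors named above are known to bind short motifs. The windows are the 250 bases before the annotated start in RefSeq, build GRCm38.p6, written 5′ to 3′ on the strand of the gene. Capitals mark a match, on either strand, to AAAGGTCA (the monomer site of Nr4a receptors), TAATCC (a core read by Pitx factors), or TGTTTAC and TATTTAC (forkhead cores). The Slc6a3 window is chr13:73536497-73536746 on the plus strand, the Th window chr7:142899996-142900245 on the minus strand and the Foxa1 window chr12:57546112-57546361 on the minus strand. Ddc has 2 annotated starts on the minus strand, with windows at chr11:11890409-11890658 (Ddc a) and chr11:11898145-11898394 (Ddc b).
Slc6a3: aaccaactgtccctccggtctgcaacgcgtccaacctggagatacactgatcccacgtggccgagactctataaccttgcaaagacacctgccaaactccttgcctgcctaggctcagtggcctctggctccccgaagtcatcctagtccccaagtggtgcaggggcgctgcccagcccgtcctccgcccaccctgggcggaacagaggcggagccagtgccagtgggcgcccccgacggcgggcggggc
Th: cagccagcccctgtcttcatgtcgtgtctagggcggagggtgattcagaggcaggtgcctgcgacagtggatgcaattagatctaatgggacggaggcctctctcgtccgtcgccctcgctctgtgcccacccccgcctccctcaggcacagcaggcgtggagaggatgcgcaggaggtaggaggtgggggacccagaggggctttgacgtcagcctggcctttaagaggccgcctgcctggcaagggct
Ddc a: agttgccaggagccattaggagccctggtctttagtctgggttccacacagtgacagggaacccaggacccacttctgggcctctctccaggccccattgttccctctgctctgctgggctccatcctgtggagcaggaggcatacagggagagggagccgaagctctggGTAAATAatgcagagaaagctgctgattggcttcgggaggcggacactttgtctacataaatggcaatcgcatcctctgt
Ddc b: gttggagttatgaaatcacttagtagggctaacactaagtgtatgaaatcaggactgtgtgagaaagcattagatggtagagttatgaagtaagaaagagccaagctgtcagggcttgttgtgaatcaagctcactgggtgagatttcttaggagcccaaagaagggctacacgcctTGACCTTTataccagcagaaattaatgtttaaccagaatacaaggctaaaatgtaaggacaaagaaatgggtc
Foxa1: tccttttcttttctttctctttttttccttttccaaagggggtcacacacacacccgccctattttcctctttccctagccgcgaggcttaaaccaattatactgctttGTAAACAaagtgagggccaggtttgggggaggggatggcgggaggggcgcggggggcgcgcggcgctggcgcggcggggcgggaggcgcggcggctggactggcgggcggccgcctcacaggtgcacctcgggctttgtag

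All matches in the windows shown lie on the strand opposite the gene, so the capitals are the reverse complement of the motif. The window of Ddc b holds the Nr4a letters 73 bases upstream of the start, the window of Ddc a holds TATTTAC 80 bases upstream and the Foxa1 window holds TGTTTAC 141 bases upstream, and the windows of Slc6a3 and Th hold none of the 4 motifs. In all, 11 of the strongly risen genes named above were looked up, 9 had an entry, and 4 of their 11 windows held a match, so the windows shown include 3 of those 4. Over all 32851 promoter windows of 300 bases in the table (250 before and 50 after the start), AAAGGTCA was in 1.51%, TAATCC in 7.06%, TGTTTAC in 3.65% and TATTTAC in 3.04%. Of the 753 genes called 2-fold or more higher, 485 matched the table, with 640 windows. In those windows the shares were 1.41%, 6.25%, 1.72% and 2.03%, and in the 17409 windows of all genes tested they were 1.21%, 5.97%, 2.77% and 2.0%. These are matches of letters, not sites.

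Growth factor genes went both ways. Of 36 neurotrophic factors and receptors, 9 were higher and 11 lower (median -0.16), close to the 26.8% and 29.2% over all genes. Ntf3 and Bdnf, both neurotrophins, rose by 3.05 and 2.66, and Erbb4, a neuregulin receptor, by 2.59. Bdnf was at 3.06 in pool 3 and between 2.50 and 2.54 in the others. Genes of growth factors made by glia and progenitors lay lower, with Ptn at -2.90, Mdk at -2.39 and the receptor Pdgfra at -3.66. Ntrk2, the receptor for Bdnf, has probes that disagree. The brightest and another were at -1.98 and -2.41, but another was at 0.51 and called higher.

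Among 41 subunits of ligand-gated channels, 19 were higher and 11 lower (median 0.28), against 26.8% and 29.2% over all genes. With median centring 21 subunits were higher and 6 lower. Nicotinic subunits led: after Chrna6, Chrnb3 rose by 3.01 and Chrna4 by 1.83, whereas Chrnb4 fell by 1.39. Gria3, an AMPA receptor subunit, rose by 2.31. Gabrg1, a GABA-A receptor subunit, fell by 0.97. Among 52 G protein-coupled receptors for transmitters and peptides, 19 were higher and 12 lower (median 0.03), against 26.8% and 29.2% over all genes. Avpr1a, a vasopressin receptor, gave 4.17, 3.57, 3.69 and 3.86, a 14.1-fold rise. Adrb3, an adrenergic receptor gene known from fat cells, was at 4.13, 4.12, 4.12 and 4.33 on its brightest probe. A second Adrb3 probe gave only 0.44, called higher, so the size of that rise depends on the probe. Npy1r, Hcrtr1 and Oprk1, receptors for neuropeptide Y, orexin and dynorphin, rose by 2.32, 1.81 and 1.66. The glutamate receptors Grm3 and Grm7 fell by 2.32 and 1.93, and Adora2a, the adenosine receptor of striatal neurons, fell by 1.97.

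Most calcium and sodium channel genes were higher. Of 44 calcium and sodium channel or calcium sensor genes, 33 were higher and 5 lower (median 0.57), against 26.8% and 29.2% over all genes. Necab1, a calcium-binding protein gene, gave 3.20, 2.27, 2.47 and 2.10. Cacna2d3, an auxiliary calcium channel subunit, averaged 2.18 ± 0.12 (SD, n = 4), and Trpc6, a cation channel of the transient receptor family, 2.22 ± 0.37. Vsnl1, a neuronal calcium sensor, was at 1.11 in pool 1 and between 1.76 and 1.84 in the others. The largest fall was that of Cacng5, an AMPA receptor auxiliary subunit, at -2.34, -2.26, -0.75 and -1.19. Calb1, the calcium buffer calbindin, was at -0.34 and was not called.

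Among potassium and HCN channels 17 of 56 were higher and 13 lower (median 0.13, and -0.002 without pool 2), near the 26.8% and 29.2% over all genes. Kcnk9, a two-pore leak channel, was at 4.11, 4.10, 4.11 and 3.92, a 16.7-fold rise, while a dimmer probe of the gene gave 0.83. Genes of the A-type current went both ways. Kcnd3, a pore subunit, rose by 1.43, and Kcnip4 and Dpp6, of 2 families of auxiliary subunits, rose by 2.40 and 1.69 on their brightest probes and by 1.05 and 3.18 on others, so their order is not settled, whereas Kcnd2, another pore subunit, fell by 0.86. Kcnn2, a calcium-activated channel, rose by 1.54. Kcnj10, the glial inward rectifier, fell by 3.83, with pools at -3.94, -3.89, -3.70 and -3.79. Kcna1 fell by 1.80.

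Genes of transmitter release were more often higher than lower. Of 48 such genes 26 were higher and 4 lower (median 0.39), against 26.8% and 29.2% over all genes. Cadps2, which primes dense core vesicles, was at 2.38 in pool 1 and between 3.04 and 3.14 in the others. A second Cadps2 probe was at 2.62, and another, at 0.05, was not called. Sv2b, a synaptic vesicle glycoprotein, rose by 2.01, Rph3a, an effector of Rab3, by 1.73, and Stx1a, a SNARE of the plasma membrane, by 1.35. Erc2, an active zone scaffold, rose by 1.21. Syt6, a synaptotagmin, fell by 1.36 and Cplx3, a complexin of retina and deep cortex, by 1.16.

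Adhesion and wiring genes went both ways. Of 60 axon guidance genes 24 were higher and 20 lower (median 0.00), and 30 and 15 with median centring, against 26.8% and 29.2% of all genes. Ntng1, a netrin relative tethered to the membrane, rose by 2.09, and Ntn1, netrin itself, by 1.24, though another Ntn1 probe, at 0.33, was not called. Plxna4 and Nrp2, parts of semaphorin receptors, rose by 1.5 and 1.31. Ackr3, a scavenging receptor for the chemokine Cxcl12, fell by 2.38, and the receptors Unc5b and Robo3 by 2.29 and 2.11. Cxcl12 was at -1.38, -3.48, -4.10 and -2.38 on its brightest probe, but its other probe, at 0.37, was not called. Of 61 adhesion and synapse organiser genes 28 were higher and 14 lower (median 0.27), against the same 26.8% and 29.2%. Cbln1, a secreted synapse organiser, rose by 2.83, Tenm1, a teneurin, by 2.01, and Clstn2, a calsyntenin, by 1.74. Cntn4, a contactin, fell by 2.08 and Lrrtm1, a postsynaptic organiser, by 1.54.

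In the cytoskeleton and growth cone list, 23 of 44 genes were higher and 11 lower (median 0.22), against 26.8% and 29.2% over all genes. The processed signals gave 32 higher and 7 lower, and median centring 21 and 15. The neurofilament genes Nefl and Nefm rose by 1.83 and 1.43 and the neuronal RNA-binding genes Elavl2 and Elavl4 by 1.34 and 0.90. Prph, an intermediate filament of motor and sensory neurons, was lowest at -2.82. The very bright genes Tubb2b and Tuba1a, tubulins of young neurons, and Stmn1, a microtubule regulator, were at -1.71, -1.52 and -1.42. With the processed signals they were at -1.27, -0.78 and -0.81, still called lower. Other probes of Tubb2b and Stmn1 were nearer 0, at -0.33 and -0.15.

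Peptide genes went both ways. Of 37 neuropeptide and granin genes, 14 were higher and 15 lower, against 26.8% and 29.2% over all genes. The median of -0.18 turned to 0.19 with median centring. The granins Scg2 and Chgb, cargo of dense core vesicles, rose by 2.64 and 1.28. Cck, cholecystokinin, which some dopaminergic neurons release, gave 1.44, 2.40, 0.59 and 1.95, with pool 3 lowest. Grp, gastrin-releasing peptide, gave 1.37, 1.51, 1.40 and 1.41. Npy and Sst, peptides of other neurons, were far lower, at -4.55 ± 0.46 and -4.05 ± 0.18 (SD, n = 4), and Crh was at -2.86. Retinoid genes also spread widely, with 5 of 23 higher, 12 lower and a median of -0.49. Next to Aldh1a1, its close relative Aldh1a7 was at 2.32, though the probes of such near copies may share signal. Rbp4, the retinol carrier, rose by 1.74. Cyp26b1, which breaks down retinoic acid, was at -5.59, -4.47, -5.00 and -5.35, and Crabp1, which binds it in the cell, fell by 2.11.

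The list of 28 genes linked to Parkinson's disease held 16 higher and 5 lower genes, and its median was 0.26. Over all genes 26.8% were higher and 29.2% lower. Rit2, a small GTPase, rose by 1.51 and Uchl1, a ubiquitin hydrolase, by 0.69. Sh3gl2, endophilin, rose by 0.82 on its brightest probe, but its other probe, at -0.41, was not called and their mean of 0.20 lost the call. Rab29, a GTPase of the Golgi, fell by 2.85 and Sncg, gamma-synuclein, by 2.19. Chchd2, a mitochondrial protein gene and very bright, was at -1.15, and at -0.62 with the processed signals.

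Genes of dividing cells and of progenitors lay below the reference. Of 35 cell cycle genes 30 were lower and 3 higher, with a median of -1.49. Ccnb1, cyclin B1, was at -3.55, -3.03, -3.31 and -3.66 on its brightest probe, at -2.06 on another, and at -0.16, not called, on a further one. Cdc20, an activator of the anaphase-promoting complex, was at -3.26, and Birc5, survivin, at -3.14 and, on another probe, -0.95. The 3 higher genes, Cdkn1a, Cdkn2d and Cdkn1b, all encode inhibitors of cyclin-dependent kinases and rose by 0.31, 0.23 and 0.15. Cdkn2d lost its call without pool 2, 3 or 4 and Cdkn1b without pool 1, 2 or 4, with adjusted p of up to 0.092 in those fits. Cdkn1a lost it when its probes were averaged, and Cdkn1b also with the processed signals. Without an intensity trend the list had 1 higher and 30 lower, and with median centring 2 higher and 27 lower. Of 35 DNA replication genes 28 were lower and 3 higher, with a median of -0.69. Tk1, thymidine kinase, fell by 2.77, Mcm10 by 2.60 and Mcm3 by 2.50. Orc6, a subunit of the origin complex, Rfc2, a clamp loader, and Lig1, a ligase, rose by 0.66, 0.47 and 0.33.

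Signalling lists leaned the same way. In the Notch and proneural list 23 of 35 genes were lower and 4 higher, with a median of -0.83. Id1, Hes5 and Notch3, effectors and a receptor of progenitors, were at -4.19, -3.35 and -3.31. Dlk1, a Notch ligand relative that is also imprinted, rose by 1.73 and was the brightest gene called 2-fold or more higher. Rfng, a glycosyltransferase acting on Notch, rose by 0.68, but its other probe, at -0.02, was not called. In the Wnt list 28 of 42 were lower and 5 higher, with a median of -0.74. The risen members were ligands or agonists: Rspo3 rose by 2.85 and Wnt5a by 2.27. The receptors Fzd1 and Fzd9 fell by 3.16 and 2.79 and the secreted antagonist Sfrp1 by 2.64. In the list of Shh, BMP and FGF signalling 25 of 45 were lower and 13 higher, with a median of -0.59. Shh, sonic hedgehog, rose by 1.48, with pools at 1.78, 1.84, 0.93 and 1.35. Its antagonist Hhip and its effector Gli3 were at -3.50 and -3.46. Fgf13, a cytoplasmic relative of FGFs, rose by 2.23, Inhbb, an activin subunit, by 1.13, and the receptor Fgfr3 fell by 2.91.

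Lists of housekeeping, sterol and imprinted genes differed from each other. All 64 tested ribosomal protein genes had negative means (Rpl18 and Rplp1, not called, turned to 0.14 and 0.003 with the processed signals) and 61 were called lower, with a median of -0.86. Rps14 and Rplp2 were lowest at -2.10 and -2.02, and Rpl18, Rplp1 and Rps7 were the 3 not called. With the processed signals 55 of the 64 were lower, none was higher and the median was -0.60. With median centring 63 were lower, none was higher and the median was -1.11. Of 48 oxidative phosphorylation genes 28 were lower and 2, Cyc1 and Ndufb8, were higher by 0.48 and 0.35, with a median of -0.19. This count turned with scaling: the processed signals gave 13 lower and 10 higher, and median centring gave 33 lower and 4 higher with Ndufb8 no longer called. Atp5b, of the ATP synthase, was at -1.08, and at -0.69 with the processed signals. Cox8a was at -0.92, or -0.50 with the processed signals, and its other probe, at -0.02, was not called. Of 24 cholesterol synthesis and uptake genes 11 were higher and 4 lower (median 0.20), against 26.8% and 29.2% over all genes. Fdft1, squalene synthase, and Sc5d, a desaturase, rose by 0.73 and 0.65, and Stard4, a sterol carrier, was at -0.86. The count of higher genes in this list was 6 to 10 when 1 pool was left out. Of 35 imprinted genes 12 were higher and 11 lower (median 0.00), near the 26.8% and 29.2% over all genes. Meg3, a long noncoding RNA, rose by 1.90 on its brightest probe and by 2.21 and 2.45 on the others. Calcr, a calcitonin receptor, fell by 1.96. Mest was at -1.71 and -1.14 on 2 probes but at 0.44 on another called probe.

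**Figure D3:**
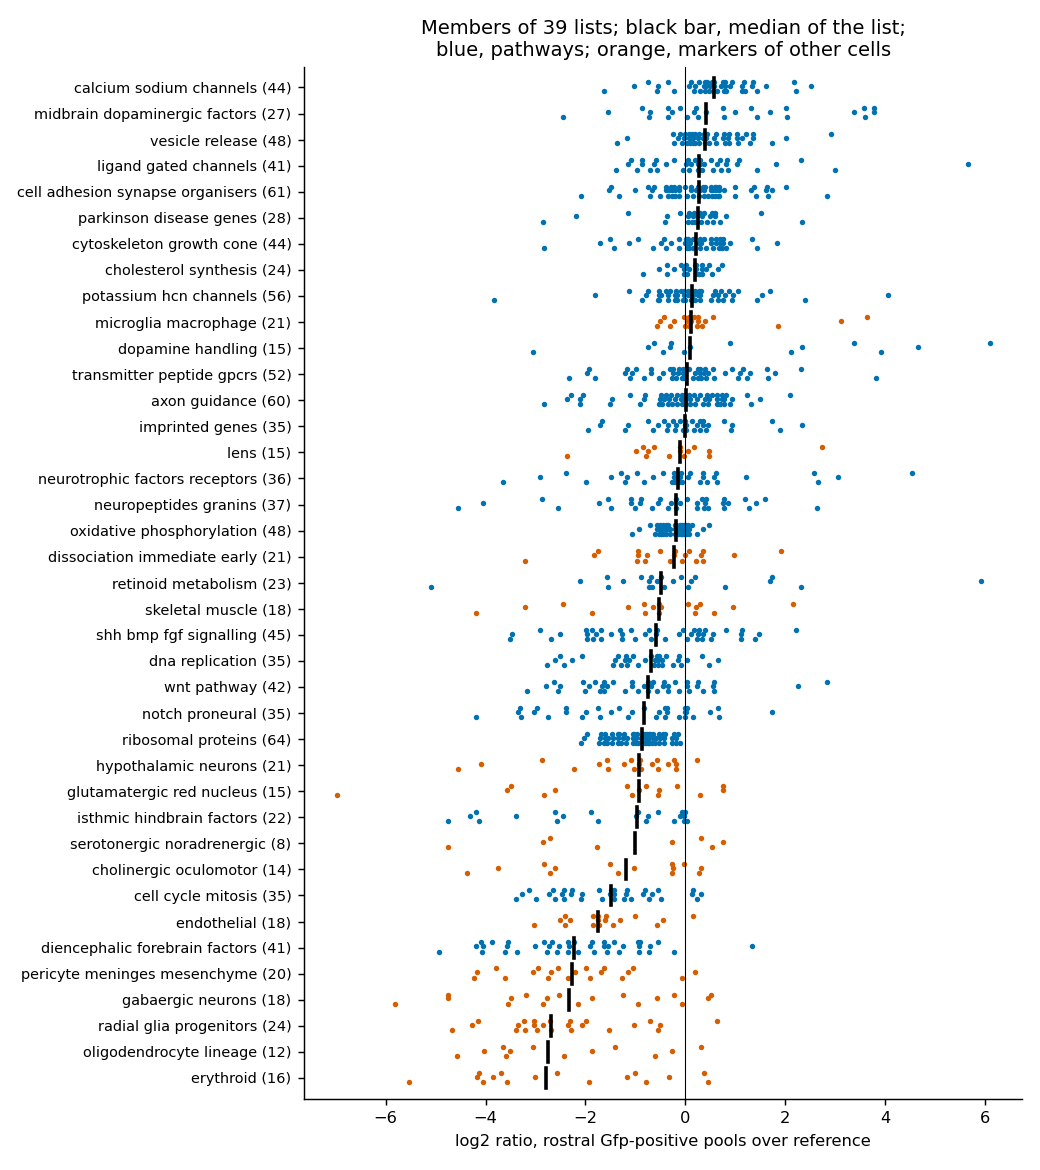
Log2 ratio of every tested member (points, x axis) of 39 gene lists (rows, with the number of members tested), ordered by the median of the list (black bar). Calcium and sodium channels have the highest median at 0.57, and erythroid, oligodendrocyte and radial glia markers have the lowest, at -2.79, -2.74 and -2.70.

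Markers of other cells were mostly far below the reference, as the plot of the lists shows. Of 24 radial glia markers 23 were lower, with a median of -2.70 and pool medians from -2.83 to -2.41. Fabp7, a fatty acid binding protein of radial glia, was at -4.66, -4.66, -5.00 and -4.37, Slc1a3, a glial glutamate transporter, at -4.26, and Sox1 at -4.15. The exception was Gfap, a filament of mature astrocytes, at 0.63, whose reference signal was well above background on 1 of the 4 arrays. Of 12 oligodendrocyte lineage markers 11 were lower, with Bcan at -4.57 and Olig1 at -4.03, and the other was higher. Of 18 endothelial markers 17 were lower, with Flt1 at -3.02 and Cdh5 at -2.50, and Pecam1, at 0.16, was not called. Of 20 pericyte and mesenchyme markers 18 were lower, with Kcnj8 at -4.23 and Pdgfrb at -4.17. Of 16 erythroid markers 12 were lower and 2 higher, with a median of -2.79. Hba-a2, an adult globin, was at -5.69, -5.70, -5.48 and -5.28 and Alas2, of haem synthesis, at -4.16. The 2 higher erythroid list members, Bpgm and Tfrc, rose by 0.45 and 0.38, and Tfrc lost its call without pool 1, 2 or 3. Sparcl1, a secreted glial and vascular protein gene, was at -5.80 and among the 15 largest falls. So were Ano1, a chloride channel, at -5.20, Mgarp, a mitochondrial protein gene, at -5.14, Tfap2b, an AP-2 factor, at -5.04, and Crym, crystallin mu, at -4.63.

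Neurons of other transmitter types included the single gene with the largest fall, and a few members were higher. Of 18 GABAergic markers 14 were lower and 1 higher, with a median of -2.34. Tal2, Gata3 and Tal1, selector genes of midbrain GABAergic neurons, were at -5.81, -4.75 and -4.75. Slc32a1, the vesicular GABA transporter, was at 0.74, 0.17, 0.62 and 0.54, but its other probe, at 0.03, was not called, and their mean of 0.27 missed the threshold. Gad2, a GABA-synthesising enzyme, was at 0.83, -0.06, 0.81 and 0.26, with an adjusted p of 0.056. Pool 2 was the lowest for both, and without it Gad2 was at 0.63 with an adjusted p of 0.019 in limma. Gad2 was called higher in 6 of the 14 alternatives run, so its call depends on the processing as well. Of 15 glutamatergic and red nucleus markers 11 were lower and 2 higher, with a median of -0.94. Pou4f2, a POU factor, was at -6.98, -6.65, -7.43 and -6.85, the largest fall of all genes, and Pou4f1, of the red nucleus, was at -3.49. Slc17a6, the vesicular glutamate transporter of the midbrain, rose by 0.76, with pools at 1.11, 0.78, 0.39 and 0.76; the other higher member was Lmx1b. Of 14 cholinergic and oculomotor markers 8 were lower and none was higher. Lhx4 was at -4.38, and Isl2, not well above background in sorted cells on any array, was at least 12.5-fold lower. Of 8 serotonergic and noradrenergic markers 4 were lower and 2, Lmx1b among them, were higher, with a median of -1.01. Fev and Slc6a4, of serotonergic neurons, fell by 2.71 and 1.77.

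Macrophage genes did not follow the marker groups above. Of 21 tested members 4 were higher, 1 lower and 16 not called, with a median of 0.12. Pf4, platelet factor 4, which fetal brain macrophages also express, was at 3.08, 3.56, 4.07 and 3.82. Ppbp, a related chemokine gene, was at 2.60, 3.19, 3.35 and 3.36, and Mrc1, a mannose receptor of border macrophages, at 1.35, 2.32, 2.10 and 1.70. Cd5l, a gene of tissue macrophages outside this list, was at 3.06, 4.53, 4.54 and 3.34 and stood among the 15 largest rises. Gp1ba, a platelet glycoprotein, was not well above background in the reference and was at least 5.89-fold higher. Cd68, a lysosomal macrophage marker, was not well above background in the reference and was at least 1.32-fold higher, a call lost without pool 2. Laptm5 was at -0.51, a call lost without pool 2, 3 or 4, and its other probe, at -0.06, was not called. The median of the list was 0.85, 0.34, -0.39 and -0.30 in pools 1 to 4. Pools 1 and 2 lay in slide row 1 and pools 3 and 4 in slide row 2, so pool and slide row cannot be told apart here. Pf4, Ppbp, Mrc1 and Cd5l were all lowest in pool 1, where the list median was highest. That median also covers the 16 members not called. The part of macrophages or platelets in these ratios was not tested.

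Muscle, lens and stress genes were listed to check for other material. Of 18 skeletal muscle genes 9 were lower and 3 higher, with a median of -0.53. Myh3, embryonic myosin heavy chain, rose by 2.15, and by 2.44 on another probe. Myl1, a myosin light chain, rose by 0.95. Myf6, a myogenic factor, was not well above background in the reference and was at least 1.23-fold higher, a call lost without pool 1, 2 or 3. Pax3 and Myh8 were at -4.19 and -3.20. Of 15 lens genes 6 were lower and 2 higher, with a median of -0.10. Bfsp2, a filament protein of lens fibres, was at 2.78, 2.74, 2.64 and 2.82, Cryga at 0.47 with its call lost without pool 1, 2 or 4, and Cryab at -2.36 on its brightest probe, with another at -0.16 not called. Of 21 genes of the immediate early and dissociation response 9 were lower and 3 higher, with a median of -0.22. Klf4 and Klf6, zinc finger factors, rose by 1.92 and 0.97, and Jund, by 0.36, lost its call without pool 2, 3 or 4. Egr1 was at -1.75 and Gadd45g at -3.21.

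Regional factors of neighbouring territories were also low in the rostral pools. Of 41 diencephalic and forebrain factors 39 were lower and 1 higher, with a median of -2.22. Irx2, Lhx2, Lhx9 and Meis2 were lowest, at -4.94, -4.19, -4.09 and -4.06, and Foxp2, which some midbrain neurons express, was at 1.34. Of 22 isthmic and hindbrain factors 15 were lower and none was higher, with a median of -0.97. After Tal1, Pax8, Pax3 and Evx1 were lowest, at -4.32, -4.19 and -4.14. Of 21 hypothalamic neuron markers 16 were lower and none was higher, with a median of -0.93.

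Some lists not yet given under the other scalings also moved. With median centring the retinoid list had 6 higher and 8 lower, the Notch list 8 and 21, the imprinted list 13 and 8, the isthmic and hindbrain list 2 and 14, and the macrophage list 6 and 0. The dissociation list had 2 higher and 5 lower, and its median turned to 0.02. With the processed signals the lens list had 5 higher and 6 lower, and the cholinergic list 2 and 9.

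Probes of 1 gene often differed in size. Of the 64 named genes with another tested probe, 45 had one that differed by over 1.5 times or in its call. Beside those given with their genes, other probes gave larger rises for Erc2 at 2.30 and Lmo4 at 1.91. They gave smaller rises for Slc18a2 at 3.24, Gria3 at 1.63, Ntng1 at 0.91 and 1.35, Elavl2 at 0.72, Foxp2 at 0.55 and Plxna4 at 0.47. They gave smaller falls for Pax3 at -3.45, Bcan at -2.71, Lhx4 at -2.29, Lhx9 at -2.06 and -2.03, Ptn at -1.84, Flt1 at -0.86, Fgfr3 at -0.74, Tle4 at -0.55 and Cntn4 at -0.52. Cdkn1a, at 0.07, was not called on its other probe, and neither was Calb1, at 0.27.

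How the rostral ratios stand to the caudal ones can be tested only as a difference, since both share the reference. Over the 18480 genes tested in both, 896 (4.85%) had a rostral minus caudal difference past the threshold, 497 (2.69%) with the rostral ratio higher and 399 (2.16%) with it lower. Among the 753 genes called at least 2-fold above the reference in rostral pools, 94 were higher than in caudal pools and 37 lower. Without rostral pool 3 these counts were 64 and 28, without caudal pool 1 they were 60 and 19, and without caudal pool 4 they were 56 and 18. Among the 1824 genes at least 2-fold below the reference, 59 were higher in rostral pools and 109 lower. Both sets were chosen by the rostral ratios that also enter the difference. That choice favours higher rostral values in the first set and lower ones in the second, so these splits carry no test. Of the 41 diencephalic and forebrain factors 14 were higher in the rostral pools and 3 lower, although nearly all lay below the reference in both parts. Their median was -2.22 in rostral and -3.07 in caudal pools.

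The genes with the largest differences among the strongly risen ones were of several kinds. On the rostral side, Nwd2, a gene of unsettled function, was at 2.78, 3.50, 3.91 and 3.40 in rostral pools and at 1.08 ± 0.43 (SD, n = 4) in caudal ones. Thbs1, thrombospondin, was at 1.74 against -0.68, Mrc1 at 1.86 against -0.21, Jade2, a chromatin factor, at 1.34 against -0.65, and Caln1, a calcium-binding protein, at 1.72 against -0.25. Each of these 5 kept its call whichever pool was left out. Col25a1, a collagen of neurons, was at 1.54 against -0.91, but it lost the call without rostral pool 3 or 4. Against the reference, another Col25a1 probe was higher at 0.43 and a further one, at -1.16, was not called. Ppbp, at 3.12 against 0.64, lost the call without rostral pool 2, 3 or 4 or caudal pool 1, 2 or 4. Gp1ba, whose reference signal was not well above background, kept its call in only 1 of the 8 fits without 1 pool, that without caudal pool 3, and lost it with the processed signals (adjusted p = 0.067 in limma), so the size of its difference is not settled.

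On the caudal side the genes were also mixed. Gipr, the receptor for glucose-dependent insulinotropic peptide, was at 1.59, 1.47, 0.56 and 1.07 in rostral pools and at 2.99 ± 0.23 (SD, n = 4) in caudal ones. Mc3r, a melanocortin receptor, was at 0.84, 1.84, 0.67 and 1.26 against 2.80 ± 0.29. Sned1, a matrix protein, was at 1.38 against 2.96 and Frem1, another, at 1.25 against 2.54. Gm833 was at 1.65 against 2.82, though 2 other probes of it were at -0.07 and 0.38. These 5 kept their calls whichever pool was left out. Cckar, a cholecystokinin receptor, was at 1.29 against 2.57 and Slco2a1, a prostaglandin transporter, at 1.35 against 3.21. Dnajc12, a cochaperone of aromatic amino acid hydroxylases such as Th, was at 1.47 against 2.86. Slco2a1 lost its call without caudal pool 1 or 4, Dnajc12 without any 1 of the caudal pools, and Cckar without rostral pool 1 or 4 or any 1 of the caudal pools.

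**Figure D4:**
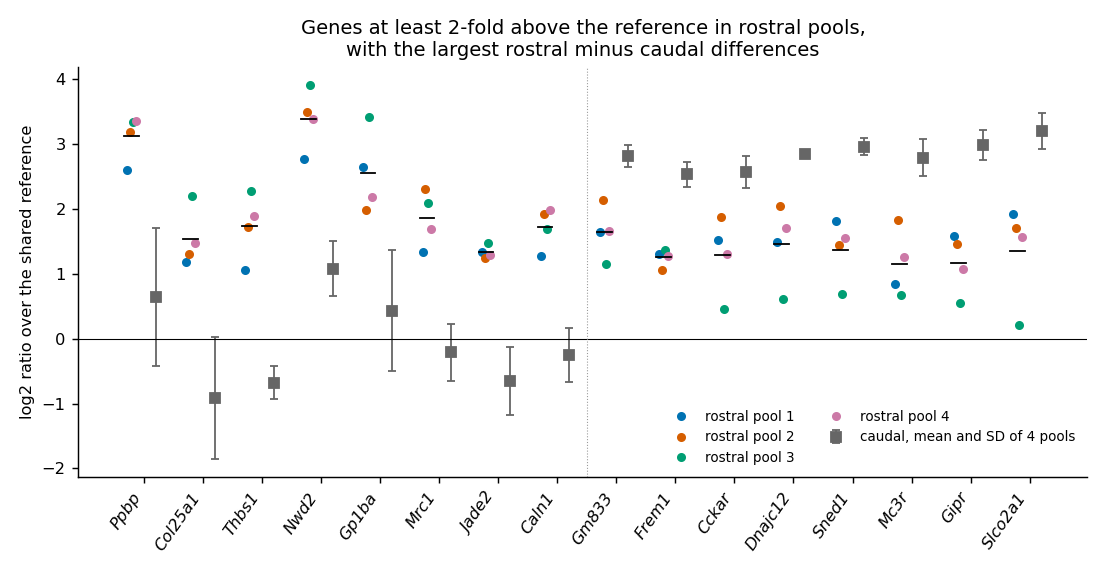
Log2 ratio over the shared reference (y axis) for the 16 genes at least 2-fold above it in rostral pools that differ most from caudal pools, 8 in each direction. Coloured points are the rostral pools with their mean as a line, and grey squares are the caudal mean with its SD over 4 pools. Rostral pool 3 is the lowest rostral pool for 7 of the 8 genes on the right.

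Among the strongly risen genes that differed from caudal pools, rostral pool 3 was most often the pool farthest from the caudal values. Of the 37 strongly risen genes that were lower than in caudal pools, pool 3 was the lowest rostral pool in 25 (67.6%), against 22.4% over all 753 risen genes. Of the 94 that were higher, pool 3 was the highest in 47 (50.0%), against 36.3% over all 753, and pool 1 was the lowest in 42 (44.7%), against 25.0%. These genes were chosen by the difference, so the shares describe the pools and carry no test. Cck and Otx2, too, were lowest in pool 3. Without that pool the differences of Gipr, Mc3r, Sned1 and Otx2 were -1.62, -1.48, -1.35 and -1.74, each still called.

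The genes that differed most among the 4 rostral pools were not dopaminergic ones. The 10 called genes with the largest SD, all well above background in sorted cells on every array, had SDs of 1.23 to 1.96. Col1a2 and Col3a1, fibrillar collagens of mesenchyme, were at 0.10 and -0.24 in pool 2 but at -3.08, -3.69 and -4.31 and at -2.78, -4.04 and -3.14 in pools 1, 3 and 4. Col1a2 lost its call without pool 1, 3 or 4 and Col3a1 without pool 4. Hmx2, a hypothalamic factor, went the other way, at -4.35 in pool 2 and -1.12, -2.0 and -1.41 in the others. The diencephalic list as a whole was lowest in pool 2, with pool medians of -1.73, -2.75, -2.04 and -1.91, and the mesenchyme list was highest there by a small margin, at -2.39, -2.11, -2.31 and -2.31. The caudal mean of Hmx2 was -3.46.

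Pools 1 and 3 had their own outlying genes. Marco, a scavenger receptor of macrophages, was at 0.27 in pool 1 and 3.48, 2.97 and 2.02 in the others, and it lost its call without pool 3. Ecrg4, a gene of choroid plexus, was at -2.26 in pool 1 and between -5.10 and -4.68 in the others. Oasl2, an interferon response gene, was at -0.90 in pool 3 and between -3.83 and -3.15 in the others, and Col5a1 at -4.74 in pool 3 and between -2.49 and -2.14 in the others. Lrig3 was at -0.88 and -0.91 in pools 1 and 2 and at -2.92 and -3.15 in pools 3 and 4. These pairs of pools also lay in different slide rows, which cannot be told apart from the pools. Efhb spread from -3.60 in pool 1 to -0.57 in pool 4 and lost its call without pool 3.

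**Figure D5:**
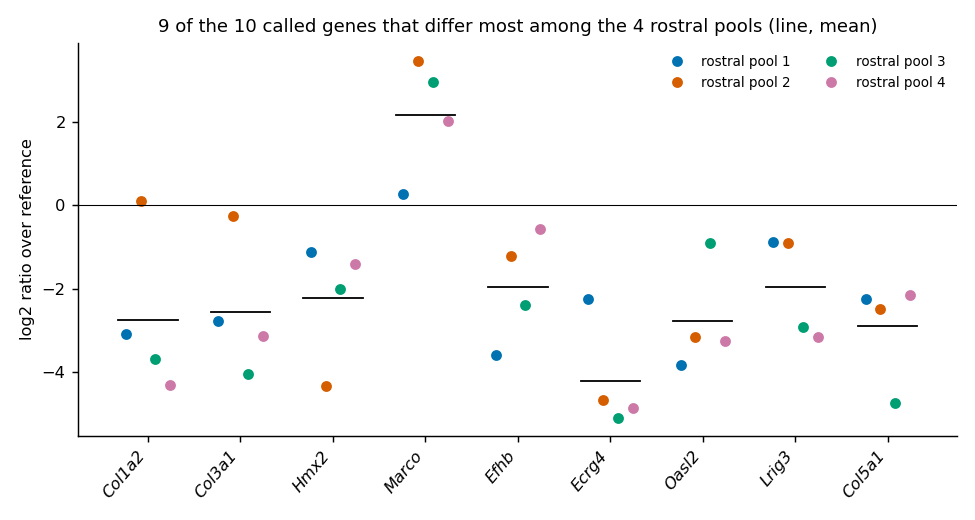
Log2 ratio over the reference (y axis) in each rostral pool (coloured points) for 9 of the 10 called genes with the largest SD among the pools; the line is the mean of the 4. Pool 2 is the highest pool for Col1a2 and Col3a1 and the lowest for Hmx2, and Marco is near 0 in pool 1 alone.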

How the data were processed

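RNA of sorted cells was measured on 2-colour Agilent arrays, 1 rostral pool against the common reference on each of 4 arrays. The deposited files hold raw scanner intensity values, which per the file headers were read with Agilent Feature Extraction, version 10.7.3.1. Median spot intensities were background-corrected with normexp (offset 50) and normalised by loess within each array in limma 3.58.1 (R 4.3.3), with control spots and outlier-flagged spots at weight 0, and spots of a probe were averaged. All 8 arrays came from 1 slide and 1 scan. Rostral pools 1 and 2 lay in slide row 1 and rostral pools 3 and 4 in slide row 2. A probe was tested if well above background on at least 2 of the 4 arrays in at least 1 channel, and the log2 ratio was tested against 0 with lmFit and eBayes with an intensity trend over 39201 probes, with Benjamini-Hochberg adjustment and a threshold of 0.05. The rostral minus caudal difference was fitted over all 8 arrays. A gene is its brightest probe, named by RefSeq accession (27509 probes) or by the symbol in the authors' deposited table (4124 probes), and 24048 probes are unnamed. The 8 value columns of that table match no label and were not used. "At least" folds set the brighter channel against the lowest signal well above background, after normalising levels between arrays, and are open to dye bias. The processed signals used as an alternative were background-subtracted, detrended and dye-normalised by the scanner software, per the file headers. Precision is limited by having 4 arrays. The script was tested on simulated data.

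Genes were named by a rule: the 15 largest rises and falls, extreme members of each list, a short list of dopaminergic genes, the 8 largest rostral minus caudal differences in each direction, the 10 largest spreads and the 10 brightest risen genes. The gene groups, lists and rule were chosen with earlier results of these data known. Other offsets, filters, scalings, fits and left-out pools were tried as alternatives. Some genes that the rule names are not reported here.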

Additional observations from a re-analysis of the deposited data

Results flagged for a closer look

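For 65 named genes the rostral minus caudal difference of the log2 ratios passed the threshold in limma. Of these, 39 passed it in all 8 fits that left out 1 pool and 26 did not. Each value below is that difference on the log2 scale, and a negative value means a lower ratio in rostral pools.

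Among receptors, channels and calcium-binding or release proteins, the differences that passed in all 8 fits were Adrb3 0.67, Npy1r 1.92, Mc3r -1.64, Gipr -1.82, Grm3 1.27, Kcnk9 -0.99, Vsnl1 1.59 and Caln1 1.97. Those lost in at least 1 of the fits were Chrna4 0.44, Cckar -1.28, Kcnip4 -0.61, Cadps2 0.89, Sv2b 0.99, Syt6 0.79 and Ano1 -0.94.

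Among dopamine handling, growth factors, peptides and signalling, the differences that passed in all 8 fits were Slc18a2 -0.56, Aldh1a1 0.57, Bdnf 1.17, Mdk -0.65, Sst -1.06, Dlk1 -0.39, Inhbb 1.44 and Fgfr3 1.44. Those lost in at least 1 of the fits were Gch1 -0.41, Ret -0.42, Cyp26b1 -1.56 and Fgf13 0.78.

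Among transcription and chromatin factors, the differences that passed in all 8 fits were Otx2 -2.07, En2 -0.90, Pbx3 0.75, Gli3 -2.30, Tal2 -1.79, Pou4f2 -2.78, Lhx4 -1.97, Fev -0.82, Lhx9 -1.60, Lhx2 -1.73, Evx1 -3.65, Pax8 -2.09, Lmo4 0.52 and Jade2 1.99. Those lost in at least 1 of the fits were En1 -0.78, Pou3f2 0.49, Irx2 -1.25, Tfap2b -1.37 and Klf6 0.67.

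Among adhesion, matrix, cytoskeleton, transport, blood cells and others, the differences that passed in all 8 fits were Cbln1 0.89, Thbs1 2.42, Sned1 -1.58, Frem1 -1.28, Mrc1 2.07, Nwd2 2.32, Gm833 -1.18, Tmem255a 1.05 and Mgarp -1.45. Those lost in at least 1 of the fits were Ntng1 1.06, Unc5b -0.56, Nefl 1.05, Col25a1 2.45, Slco2a1 -1.85, Dnajc12 -1.39, Pf4 1.54, Ppbp 2.48, Gp1ba 2.12 and Myh3 -0.85. The reference signal of Gp1ba was not well above background, and its difference lost the call with the processed signals.

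In 12 of the 236 named genes 1 of the 4 rostral pools stood apart from the other 3 (Dixon's test at a critical value of 0.829). Chance gives this in about 1 in 20 genes, or 11.8 of 236, so the count is no more than chance gives. Pool 1 stood apart at -1.66 for Maob, -2.26 for Ecrg4, 1.11 for Vsnl1, 1.53 for Dlk1 and 2.38 for Cadps2. Pool 3 stood apart at 3.06 for Bdnf and -4.74 for Col5a1. Pool 4 stood apart at 4.33 for Adrb3, 3.92 for Kcnk9, -0.82 for Cox8a, -3.08 for Hes5 and -1.01 for Syt6.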

How the results depend on the processing

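The counts of genes called higher and lower stayed within 1.5 times of 5067 and 5517 under every alternative run, and without 1 pool they were 4110 to 4396 and 4678 to 4919. The count of 753 genes at least 2-fold higher was 1637 with the processed signals and 1278 with median centring. Without 1 pool it was 732 to 787. The count of 1824 at least 2-fold lower was 2396 with the processed signals, 2083 with a normexp offset of 16 and 1599 with median centring. Without 1 pool that count was 1773 to 1832. The 896 genes with a rostral minus caudal difference were 471 to 777 without 1 pool, with 564 without rostral pool 4, 471 without caudal pool 1 and 475 without caudal pool 4. With the replicate number as a block they were 456. Calls lost with it included Slc18a2 and Adrb3 (adjusted p = 0.074 and 0.055 in limma), which had passed in all 8 fits without 1 pool. Deviations of same-numbered pools did not correlate (r of -0.06 to 0.02). That cannot show whether such pools share embryos, and the labels do not say. Of the called named genes, Pts changed sign, to 0.013 with median centring, and the cause was not tested; 5 named genes that were not called (Maoa, Sox6, Calb1, Rpl18 and Rplp1) also crossed 0 under an alternative. Named genes that lost their call numbered 8 with median centring, not counting Pts, 3 with the processed signals and 6 to 9 without 1 pool. Very bright genes depend on the scaling, and genes near background have only bounds. With 1 reference, 1 dye orientation and 4 pools, the spread of the reference is not measured.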
